A study of Bos indicus x Bos taurus with 11 samples.

Results

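Proteoglycans and the enzymes that build their chains were examined in cultured skin fibroblasts of bovine fetuses, some of them controls and some with large offspring syndrome (LOS), an overgrowth of calves that follows assisted reproduction. The set holds 44 genes, found by gene name among the 27398 genes and assembled loci of the count table. It comprises 19 core proteins and 25 enzymes that start, extend or modify the chains. After the filter on low counts, 38 of the 44 were tested, 17 cores and 21 enzymes.

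A proteoglycan is a core protein that carries long sulfated sugar chains. Synthesis begins on a serine of the core with a short linker, after which polymerases extend either heparan sulfate or chondroitin and dermatan sulfate, and further enzymes cut, epimerise and sulfate the chain. Heparan sulfate on glypicans and syndecans holds growth factors and morphogens at the cell surface, whereas chondroitin and dermatan sulfate proteoglycans of the dermis space water and collagen fibrils. In people, loss of the glypican GPC3 causes Simpson-Golabi-Behmel syndrome, an overgrowth disorder.

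All fetuses, at day 105 of gestation, were F1 hybrids from a cross of the breeds Brahman, which is Bos taurus indicus, and Angus, which is Bos taurus taurus. The 5 controls (2 females, controls 1 and 2, and 3 males, controls 3 to 5) were conceived by artificial insemination. The 6 LOS fetuses (females LOS 1 to LOS 3, males LOS 4 to LOS 6) came from assisted reproduction and weighed more than the 97th centile of controls, so the way of conception and the overgrowth cannot be told apart. Each fetus gave 1 culture, grown in medium with 10% fetal bovine serum at 38.5 °C, and 1 library of total RNA depleted of ribosomal RNA. The labels do not say which breed was the mother, so parent of origin and breed cannot be told apart in the allelic data.

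Library totals ran from 12084822 expected counts in LOS 1 to 19297167 in LOS 6. The 9 fibroblast markers fitted the label, with a summed level of 53219 to 62859 CPM, which are counts scaled to a common library size, in controls and 51571 to 65693 in LOS. Markers of other cell types had smaller sums and were uneven. Pericyte markers summed to 124 to 273 CPM in controls and 134 to 280 in LOS. Of these, CSPG4 alone measured 109 to 247 CPM in controls and 120 to 259 in LOS. Adipocyte (6 of 6 in the table), muscle (4 of 7) and leukocyte (5 of 6) markers each summed to at most 6.85 CPM. Keratinocyte markers (6 of 8 in the table) summed to 3.56 to 10.7 CPM in controls and 2.38 to 24.4 in LOS, and endothelial markers (5 of 7) to at most 5.21. Melanocyte and Schwann cell markers (5 in the table) summed to 49.7 to 339 CPM in controls and 59.0 to 141 in LOS, and 1 of the 4 tested, NGFR, had a lower level in LOS at an unadjusted p under 0.05. Cartilage and bone markers (6 of 8) summed to 14.7 to 177 CPM in controls and 17.2 to 76.7 in LOS. Of the 3 tested, 1, ACAN, had a lower level in LOS at an unadjusted p under 0.05. All 9 proliferation genes had negative log2 fold changes, 1 of them with an unadjusted p under 0.05. Any part of these in the results that follow was not tested. In bulk RNA, fewer cells of a type and less RNA per cell cannot be told apart.

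No member passed the test between LOS and control. The edgeR quasi-likelihood test with sex as a term called 0 of the 38 members at a Benjamini-Hochberg adjusted p under 0.05, where it called 0% of all 16946 genes tested. Fold changes were balanced, with 19 members higher and 19 lower in LOS and a median log2 fold change of 0.0024, beside -0.00070 over all genes. Of the cores 9 were higher and 8 lower, and of the enzymes 10 were higher and 11 lower. At an unadjusted p under 0.05 stood 3 members (7.89%), beside 4.44% of all genes. The core AGRN was higher, where 2.48% of all genes were higher at that p, and the enzymes XYLT1 and HS6ST1 were lower, where 1.95% of all genes were lower. The groups overlapped at every member tested. Over all genes, 0.0944% had every LOS library above every control and 0.136% had every LOS library below.

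**Figure D1:**
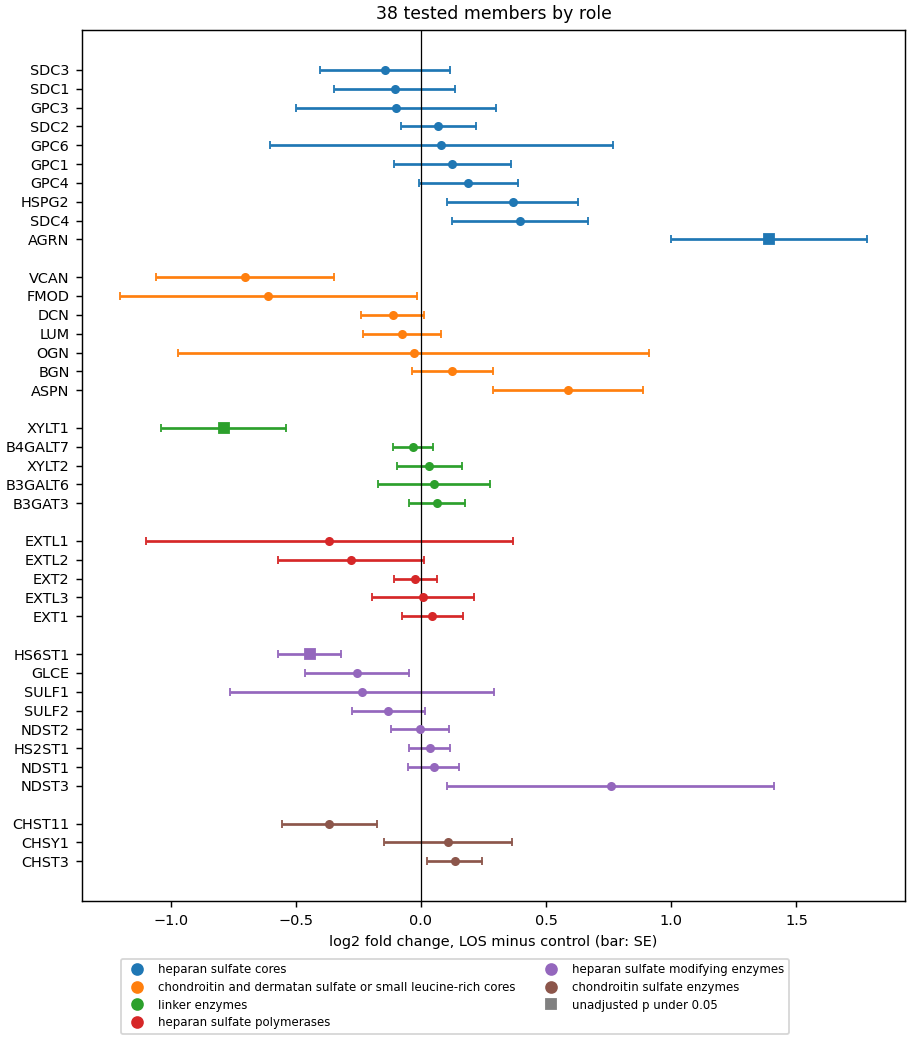
Log2 fold change of each tested member, LOS minus control (x axis), with its standard error as a bar, grouped and coloured by role; squares mark the 3 members with an unadjusted p under 0.05. AGRN lies furthest to the right at 1.39 and XYLT1 furthest to the left at -0.79.

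Among the heparan sulfate cores, AGRN had the largest difference. Agrin is a secreted basement membrane proteoglycan known for clustering acetylcholine receptors at the neuromuscular junction. Its level was 8.31, 16.6, 6.45, 4.92 and 8.26 CPM in controls 1 to 5. In LOS 1 to LOS 6 it was 7.96, 28.3, 30.8, 17.2, 17.6 and 36.1 CPM. LOS 2, LOS 3, LOS 4, LOS 5 and LOS 6 lay above every control, while LOS 1 lay among the controls. The log2 fold change was 1.39 ± 0.39 (SE), with an unadjusted p of 0.0046 and an adjusted p of 0.93 in edgeR's quasi-likelihood test. Leaving out 1 library moved the log2 fold change between 1.12 and 1.71, and the adjusted p was 0.36 in DESeq2. The gene lies at chr16:51422630-51461933 of the ARS-UCD1.2 build. The 3 tested genes on either side of it had log2 fold changes from -0.09 (LOC526769) to 0.90 (HES4, SE 0.57), none with an unadjusted p under 0.05.

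HSPG2 encodes perlecan, the large heparan sulfate proteoglycan of basement membranes. It measured 623 ± 210 CPM in controls (SD, n = 5) and 783 ± 303 in LOS (SD, n = 6), a log2 difference of 0.37 ± 0.26 (SE). LOS 4 was highest at 1299 CPM and LOS 3 lowest at 384, so LOS libraries bounded the range on both sides.

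Glypicans are heparan sulfate proteoglycans tethered to the membrane by a lipid anchor. GPC3 measured 87.1, 147, 60.3, 80.3 and 14.5 CPM in controls 1 to 5. In LOS 1 to LOS 6 it measured 61.1, 126, 72.1, 83.8, 59.1 and 33.1 CPM. The highest and the lowest library were both controls, and the LOS values lay between them. The log2 fold change was -0.10 ± 0.40 (SE), with an adjusted p of 0.98 in edgeR's quasi-likelihood test. Leaving out control 2 turned its sign, to 0.11. GPC4, the next glypican gene on the X chromosome, measured 164, 97.1, 231, 127 and 208 CPM in controls 1 to 5. In LOS 1 to LOS 6 it measured 167, 184, 164, 142, 201 and 235 CPM. Controls 2 and 4 lay below every LOS library, the other controls lay within the LOS range, and the log2 fold change was 0.19 ± 0.20 (SE).

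GPC1 measured 235 ± 59.6 CPM in controls and 259 ± 78.8 in LOS (SD, n = 5 and 6). GPC6 was among the most uneven members: it ran from 4.99 CPM in control 2 to 84.7 in LOS 1, a 17.0-fold range. Its log2 fold change of 0.08 ± 0.69 became -0.44 without control 2. GPC2 and GPC5 were not tested, with at most 13 and 9 expected counts in any library. Counts of 3 correspond to 0.148 to 0.246 CPM in these libraries, and levels near that limit cannot be told from absence at this depth.

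Syndecans are heparan sulfate proteoglycans that span the membrane. SDC1 measured 52.9 ± 19.2 CPM in controls and 48.3 ± 10.9 in LOS, SDC2 68.1 ± 9.10 and 70.6 ± 18.6, and SDC3 105 ± 22.9 and 94.997 ± 36.8 (SD, n = 5 and 6). These differences were smaller than the spread within either group. SDC4, the syndecan of focal adhesions, measured 92.1 ± 17.8 CPM in controls and 132 ± 64.1 in LOS. LOS 2 held the highest value, 253 CPM, and the log2 fold change was 0.40 ± 0.27 (SE).

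The 7 cores that carry chondroitin or dermatan sulfate, or belong to the small leucine-rich family, had 2 positive and 5 negative log2 fold changes. VCAN encodes versican, a large hyaluronan-binding proteoglycan of loose matrix. It measured 1687, 734, 1187, 1069 and 937 CPM in controls 1 to 5. In LOS 1 to LOS 6 it measured 1978, 642, 802, 545, 541 and 330 CPM. LOS 1 exceeded every control, whereas LOS 2, LOS 4, LOS 5 and LOS 6 lay below every control. The log2 fold change was -0.70 ± 0.36 (SE, unadjusted p = 0.074, adjusted p = 0.93, edgeR quasi-likelihood). Without LOS 1 it was -1.004, with an adjusted p of 0.31 in the same edgeR test.

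Decorin (DCN) and lumican (LUM), which bind collagen fibrils and set their width, were even across fetuses. DCN measured 1054 ± 126 CPM in controls and 986 ± 146 in LOS, and LUM 1011 ± 122 and 958 ± 199 (SD, n = 5 and 6). Biglycan (BGN), a close relative of decorin, measured 456 ± 64.4 and 497 ± 126 CPM. Fibromodulin (FMOD), another collagen-binding member, measured 744 ± 213 CPM in controls and 547 ± 545 in LOS. Its LOS values ran from 146 CPM in LOS 4 to 1573 in LOS 1, which are also the lowest and the highest of all 11 libraries. The log2 fold change of FMOD was -0.61 ± 0.59 (SE).

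Osteoglycin (OGN) and asporin (ASPN), small leucine-rich members that lie close together on chromosome 8, differed in how even they were. OGN ran from 6.46 CPM in LOS 4 to 143 in control 5, a 22.2-fold range. Its log2 fold change was -0.03 ± 0.94, and it changed sign when single libraries were left out (-0.60 to 0.60). ASPN measured 127 ± 58.0 CPM in controls and 184 ± 62.1 in LOS (SD, n = 5 and 6). Its log2 fold change was 0.59 ± 0.30 (SE, unadjusted p = 0.076, adjusted p = 0.93, edgeR quasi-likelihood).

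Of the 5 linker enzymes, XYLT1 stood out. It is 1 of the xylosyltransferases that put the first sugar on the core and so start these chains. Its level was 115, 130, 75.9, 164 and 63.3 CPM in controls 1 to 5. In LOS 1 to LOS 6 it was 75.01, 78.7, 70.1, 68.9, 66.6 and 33.8 CPM. Controls 1, 2 and 4 lay above every LOS library, while controls 3 and 5 lay within the LOS range. The log2 fold change was -0.79 ± 0.25 (SE), with an unadjusted p of 0.0092 and an adjusted p of 0.93 in edgeR's quasi-likelihood test. Without control 4 it was -0.51, and it lay between that value and -0.91 when any other library was left out. The gene lies at chr25:15541428-15893697 (ARS-UCD1.2), and none of the 6 tested genes nearest to it had an unadjusted p under 0.05.

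The other xylosyltransferase, XYLT2, measured 40.4 ± 5.66 CPM in controls and 41.4 ± 6.18 in LOS (SD, n = 5 and 6). The galactosyltransferases that add the next sugars were as close: B4GALT7 measured 27.1 ± 1.64 and 26.4 ± 1.75 CPM, and B3GALT6 3.41 ± 0.777 and 3.53 ± 0.934. B3GAT3, which completes the linker with glucuronic acid, measured 32.6 ± 3.43 and 34.1 ± 4.32 CPM. Of the 5 linker genes, XYLT1 had the widest range over the libraries, 4.86-fold, and B4GALT7 the narrowest, 1.21-fold.

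The heparan sulfate polymerases EXT1 and EXT2, which form the complex that extends the chain, varied little. EXT1 measured 81.1 ± 11.7 CPM in controls and 83.1 ± 12.1 in LOS, and EXT2 125 ± 13.1 and 122 ± 6.36 (SD, n = 5 and 6). EXTL3, which adds the first glucosamine and commits the linker to heparan sulfate, measured 49.0 ± 10.5 and 49.3 ± 14.2 CPM. EXTL2 measured 12.1 ± 2.75 and 10.1 ± 4.35 CPM, and EXTL1, with at most 22 expected counts in a library, 0.808 ± 0.517 and 0.661 ± 0.535.

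HS6ST1 had the smallest p of all members in the comparison of LOS with control. It is a 6-O-sulfotransferase, which adds sulfate to carbon 6 of the glucosamine units. Its level was 53.6, 58.7, 41.2, 50.7 and 46.9 CPM in controls 1 to 5. In LOS 1 to LOS 6 it was 38.7, 49.9, 35.955, 28.7, 42.4 and 30.4 CPM. LOS 1, LOS 3, LOS 4 and LOS 6 lay below every control, and LOS 2 and LOS 5 lay within the control range. The log2 fold change was -0.44 ± 0.12 (SE), with an unadjusted p of 0.0044 and an adjusted p of 0.93 in edgeR's quasi-likelihood test. Its range when each library was left out was -0.54 to -0.39. The other 6-O-sulfotransferases, HS6ST2 and HS6ST3, had at most 4 and 2 expected counts in a library and were not tested. None of the 6 tested genes nearest to HS6ST1 on chromosome 2 had an unadjusted p under 0.05.

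**Figure D2:**
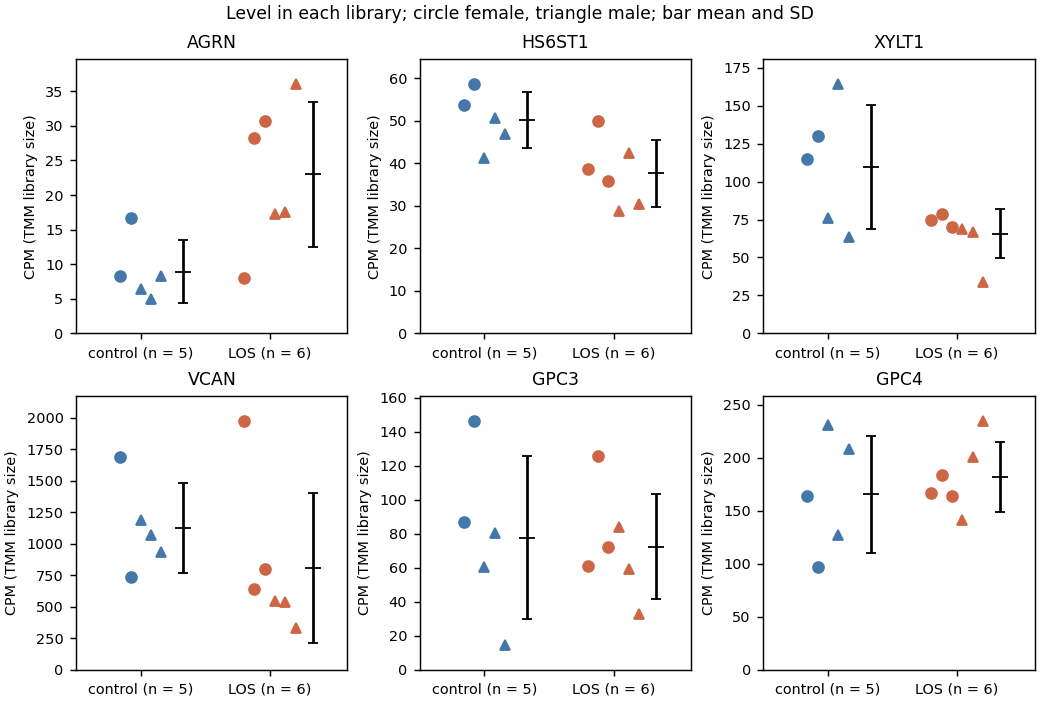
CPM of AGRN, HS6ST1, XYLT1, VCAN, GPC3 and GPC4 (y axes, from 0) in each control and LOS library; circles are females, triangles males, and bars give the mean and SD. In AGRN 5 LOS libraries sit above every control, and in VCAN LOS 1 sits apart at 1978 CPM.

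The enzymes that begin chain modification, the N-deacetylase/N-sulfotransferases, differed in their spread. NDST1 measured 135 ± 21.2 CPM in controls and 140 ± 8.22 in LOS, and NDST2 25.7 ± 3.28 and 25.6 ± 2.95 (SD, n = 5 and 6). NDST3 had between 9 and 75 expected counts and measured 1.46 ± 1.40 and 2.44 ± 1.96 CPM. Its log2 fold change was 0.76 ± 0.65 (SE), and ranged from 0.20 without LOS 1 to 1.54 without control 3 when single libraries were left out. GLCE, the epimerase that turns glucuronic into iduronic acid, measured 64.9 ± 21.7 and 55.5 ± 10.99 CPM. HS2ST1, which sulfates that iduronic acid, measured 43.9 ± 2.58 and 44.8 ± 4.01 CPM. HS3ST1, the enzyme that makes the antithrombin-binding site of heparin, had at most 7 expected counts in a library and was not tested.

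SULF1 and SULF2 are extracellular sulfatases that remove 6-O-sulfate from finished chains, the reverse of what HS6ST1 adds. SULF1 measured 116 ± 47.1 CPM in controls and 102 ± 79.1 in LOS, from 30.1 CPM in LOS 6 to 253 in LOS 1. Its log2 fold change was -0.24 ± 0.53 (SE) and turned to 0.06 without LOS 6. SULF2 was more even, at 87.9 ± 17.5 and 81.1 ± 11.9 CPM. Of the chondroitin sulfate enzymes, the polymerase CHSY1 measured 57.8 ± 21.8 and 61.5 ± 17.2 CPM and the 6-O-sulfotransferase CHST3 104 ± 12.2 and 113 ± 14.6 (SD, n = 5 and 6). The 4-O-sulfotransferase CHST11 measured 8.10 ± 1.38 CPM in controls and 6.44 ± 1.65 in LOS, a log2 fold change of -0.37 ± 0.19 (SE). CSGALNACT1, which starts chondroitin chains, had at most 3 expected counts in a library and was not tested. CSGALNACT2, of the same family but not a member here, measured 62.5 ± 11.2 CPM in controls and 73.7 ± 13.2 in LOS.

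The spread between fetuses of a group was wide at some members and narrow at others. The SD of log2(CPM + 0.5) within groups had a median of 0.38 over the tested members and 0.28 over all genes tested, and 9 members stood in the top 10% of all genes. These 9 were the cores OGN, GPC6, FMOD, GPC3, AGRN and VCAN and the enzymes SULF1, NDST3 and EXTL1. NDST3 had 9 to 75 expected counts per library and EXTL1 at most 22. How far counting noise accounts for the spread of these 2 was not tested. B4GALT7, HS2ST1 and EXT2 were at the other end, with ranges of 1.21-fold, 1.29-fold and 1.33-fold over the libraries.

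Part of this spread lay in single libraries. LOS 1 was the highest of the 11 libraries at 7 members (GPC6, VCAN, DCN, LUM, FMOD, NDST3 and SULF1) and the lowest at 4 (GPC1, SDC2, BGN and EXTL3). LOS 4 was the highest at 7 other members and the lowest at 5, and LOS 6 was the lowest at 6, among them VCAN, XYLT1 and SULF1. How often each library was highest or lowest over all genes was not counted. LOS 1 also had the highest keratinocyte marker sum, 24.4 CPM, of which CDH1 made up 21.2. Without LOS 1, 7 members rather than 3 had an unadjusted p under 0.05, the added ones being VCAN, ASPN, FMOD and CHST11, and none passed after adjustment. That is 18.4% of the members, while the share of all genes at that p was 10.9% without LOS 1.

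**Figure D3:**
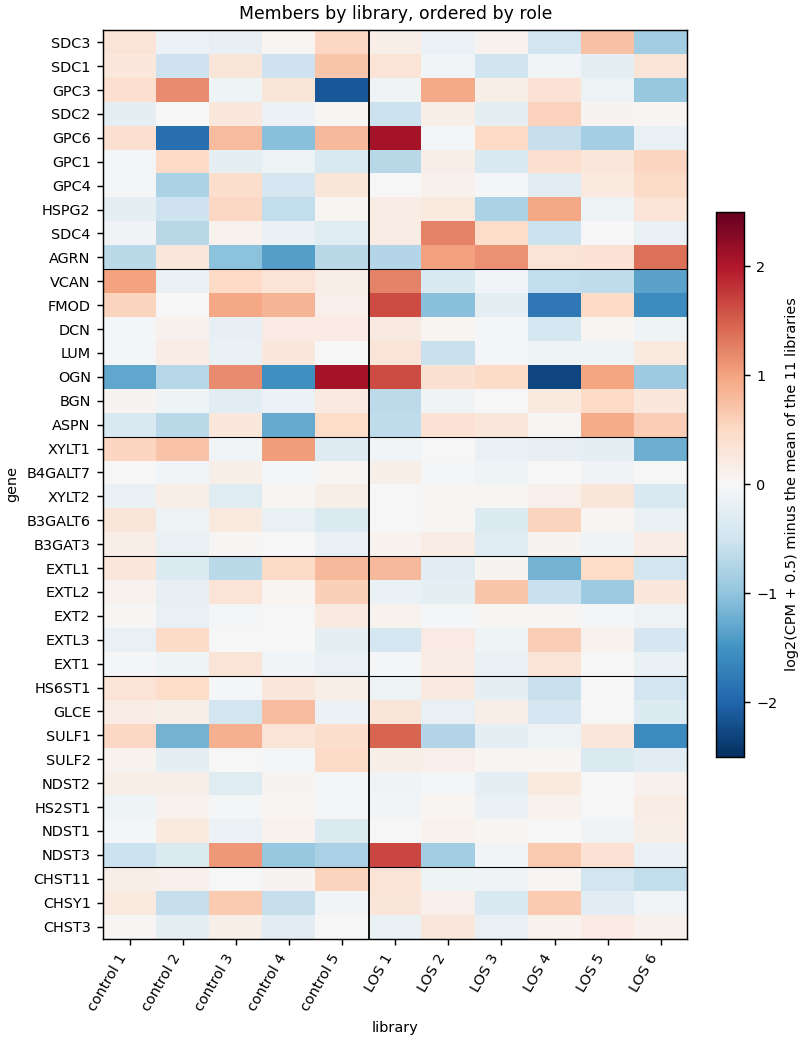
Log2(CPM + 0.5) of each tested member (rows, ordered by role) in each library (columns) minus the mean of the 11 libraries, red above and blue below. OGN and GPC6 show the strongest colours, and LOS 1 is red at FMOD, SULF1, NDST3, GPC6 and VCAN, where it is the highest library.

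Sex was compared in the same fit, since GPC3, GPC4, BGN and HS6ST2 lie on the X chromosome. None of the 38 members passed, where 0.0472% of all genes did (edgeR quasi-likelihood, adjusted p under 0.05). At an unadjusted p under 0.05 stood 2 members (5.26%), beside 3.3% of all genes. HS6ST1 measured 47.4 CPM on average in females and 40.04 in males (log2 -0.29 ± 0.13 SE). VCAN measured 1168 and 768 CPM (log2 -0.80 ± 0.36 SE). Of the 3 X-linked members tested, GPC3 averaged 98.6 CPM in females and 55.2 in males, a log2 difference of -0.84 ± 0.40 (SE, unadjusted p = 0.060, adjusted p = 0.999, edgeR quasi-likelihood). GPC4 and BGN were higher in males, by 0.33 ± 0.20 and 0.30 ± 0.16 on the log2 scale.

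The difference between LOS and control was also compared between the sexes. The interaction called none of the 38 members and 0% of the 17583 genes tested (edgeR quasi-likelihood, adjusted p under 0.05). At an unadjusted p under 0.05 stood 5 members (13.2%), beside 4.95% of all genes. They were GPC1, SDC4, NDST2, OGN and GPC6. In GPC1, females averaged 284 CPM in controls and 198 in LOS, while males averaged 202 and 320. The interaction was 1.18 ± 0.32 (SE) on the log2 scale, with an unadjusted p of 0.0042 and an adjusted p of 0.92 in edgeR's quasi-likelihood test. SDC4 had the opposite order, with 82.8 and 174 CPM in females and 98.3 and 90.6 in males (log2 -1.19 ± 0.41 SE). Each of these means rests on 2 or 3 libraries.

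Reads over sites where the parents differ were given for 26 of the 44 members, and 18 of these were autosomal with enough reads to test. The 18 members without allelic reads included GPC3, GPC4, BGN, VCAN, ASPN, SDC4 and NDST1. Over all 11 libraries, 8 of the 18 had unequal maternal and paternal reads at an adjusted p under 0.05 (edgeR quasi-likelihood). That is 44.4% of those tested, beside 20.5% of all 5696 genes. The members were read more deeply: their median was 371 allelic reads per library, beside 123 over all genes tested, and 15 of the 18 lay above the latter. How far that depth accounts for the higher share was not tested.

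More reads came from the maternal allele at 4 members (SULF1, SDC3, FMOD and EXTL3), where 10.2% of all genes were called in that direction. More came from the paternal allele at the other 4 (XYLT1, DCN, GPC6 and GLCE), where 10.3% of all genes were called. Each direction held 2 cores and 2 enzymes. Maternal reads made up 50.5% to 50.9% of all allelic reads in each library.

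XYLT1 was the most unequal on the paternal side. Its maternal share was 45.1%, 46.8%, 37.996%, 46.2% and 44.6% in controls 1 to 5 and 40.5%, 36.3%, 39.2%, 36.5%, 43.8% and 42.2% in LOS 1 to LOS 6. The share was below 50% in 11 of 11 libraries, on 313 to 4915 reads. The log2 ratio of maternal to paternal reads was -0.47 ± 0.06 (SE, adjusted p = 5.8e-06, edgeR quasi-likelihood). The widest 95% interval of a single library (exact Clopper-Pearson, counting error only) was that of LOS 6, 36.6% to 47.9%.

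DCN, GPC6 and GLCE were paternal by less. The maternal share of DCN was 50.2%, 48.1%, 45.7%, 45.8% and 35.8% in controls 1 to 5 and 47.3%, 44.7%, 46.4%, 47.4%, 36.8% and 49.7% in LOS 1 to LOS 6, below 50% in 10 of 11 libraries. Its log2 ratio was -0.27 ± 0.07 (SE, adjusted p = 0.0062, edgeR quasi-likelihood). Control 5 and LOS 5 stood lowest, 1 library of each group. GPC6 was at 45.0%, 33.3%, 45.6%, 46.8% and 44.4% in controls 1 to 5 and 49.0%, 47.7%, 44.7%, 41.2%, 47.5% and 41.4% in LOS 1 to LOS 6, below 50% in 11 of 11. Control 2 had only 3 reads there, with an interval of 0.840% to 90.6%. The log2 ratio was -0.26 ± 0.07 (SE, adjusted p = 0.0086, edgeR quasi-likelihood). GLCE was at 42.5%, 40.4%, 50%, 40.2% and 46.3% in controls 1 to 5 and 43.7%, 52.5%, 50%, 45.3%, 49.3% and 44.9% in LOS 1 to LOS 6. Only LOS 2 lay above 50%. Its log2 ratio was -0.26 ± 0.08 (SE, adjusted p = 0.018, edgeR quasi-likelihood), and the call was lost without control 2 or without control 4 (adjusted p = 0.053 and 0.060 in the same edgeR test).

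SULF1 had the largest ratio of all 18, on the maternal side, but also few reads. Its maternal share was 59.5%, 77.6%, 66.7%, 63.2% and 54.5% in controls 1 to 5 and 60%, 58.1%, 73.9%, 80.0%, 65.6% and 23.1% in LOS 1 to LOS 6, on 11 to 255 reads. LOS 6, with 13 reads and an interval of 5.04% to 53.8%, was the 1 library below 50%. The log2 ratio was 0.83 ± 0.16 (SE, adjusted p = 0.00050, edgeR quasi-likelihood). These reads compare with 569 to 3085 expected counts of the gene per library.

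SDC3 was at 58.9%, 55.7%, 57.5%, 56.0% and 59.9% in controls 1 to 5 and 48.6%, 58.8%, 66.2%, 53.5%, 51.6% and 55.9% in LOS 1 to LOS 6, above 50% in 10 of 11 libraries. Its log2 ratio was 0.38 ± 0.08 (SE, adjusted p = 0.0011, edgeR quasi-likelihood), and the controls were the more even group. FMOD, with 1484 to 10237 reads, was at 57.4%, 57.0%, 48.7%, 61.4% and 58.3% in controls 1 to 5 and 55.4%, 56.2%, 49.5%, 50.5%, 50.6% and 67.0% in LOS 1 to LOS 6. Control 3 and LOS 3 were the 2 libraries below 50%, and the log2 ratio was 0.33 ± 0.07 (SE, adjusted p = 0.0014, edgeR quasi-likelihood). At this depth the libraries differed from each other by more than counting error, if each read was counted once. The interval of control 3 was 47.7% to 49.7% and that of LOS 6 was 65.1% to 68.8%. EXTL3 was at 56.9%, 56.2%, 47.5%, 57.2% and 67.3% in controls 1 to 5 and 47.2%, 52.7%, 56.6%, 52.0%, 51.6% and 61.2% in LOS 1 to LOS 6, above 50% in 9 of 11 libraries. Its log2 ratio was 0.30 ± 0.09 (SE, adjusted p = 0.015, edgeR quasi-likelihood).

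**Figure D4:**
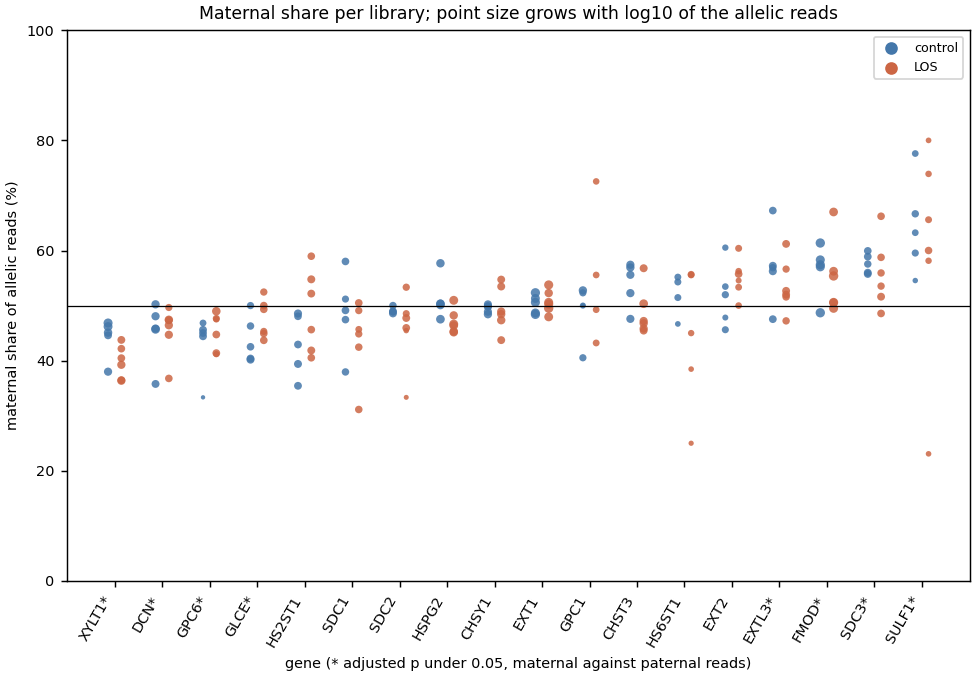
Maternal share of allelic reads in percent (y axis) for the 18 tested members (x axis, ordered by their log2 ratio), 1 point per library, controls blue and LOS red, with larger points for more reads and the line at 50%. XYLT1 lies below the line in all 11 libraries, and SULF1 above it in 10.

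The other 10 members tested had log2 ratios from -0.22 to 0.21 and no call. EXT1, with 1297 to 9271 allelic reads, had a maternal share of 50.5% ± 1.82 (SD, n = 11) and CHSY1 one of 49.4% ± 2.91. AGRN had only 171 allelic reads in 9 libraries and was not tested. LUM had reads in 7 libraries only, with a maternal share of 63.4% ± 6.72 (SD, n = 7), and was not tested either. Allelic reads are not a fixed part of the expected counts. At 5 members (EXT1, XYLT1, GPC6, CHST3 and CHSY1) they exceeded the expected count in at least 1 library, by up to 7.28-fold at EXT1 in LOS 2. The counting of reads that cover several sites is not described in the labels.

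The allelic share was then compared between LOS and control. No member passed, where 0% of the 5696 genes did (edgeR quasi-likelihood, adjusted p under 0.05). At an unadjusted p under 0.05 stood 3 of the 18 members (16.7%), beside 4.32% of all genes, and each had a lower maternal share in LOS. The greater read depth of the members applies here too, and how far it accounts for the higher percentage was not tested. How many of all genes at that p had a lower maternal share in LOS was not counted. XYLT1 averaged 44.1% ± 3.55 in controls and 39.7% ± 3.00 in LOS, HSPG2 51.2% ± 3.82 and 47.1% ± 2.18, and CHST3 54.0% ± 4.09 and 48.7% ± 4.31 (SD, n = 5 and 6). The log2 differences of the ratio were -0.28 ± 0.11, -0.23 ± 0.10 and -0.31 ± 0.13 (SE). Over all 18 members the maternal share was lower in LOS at 11 and higher at 7.

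The level of each parental allele could be compared for 16 members. No member passed on either allele, where 0% of the 4248 genes did on the maternal and 0% on the paternal allele (edgeR quasi-likelihood, adjusted p under 0.05). At an unadjusted p under 0.05 stood 1 member on each allele, beside 4.59% of all genes on the maternal and 4.4% on the paternal allele, and both times it was XYLT1. Its maternal allele measured 49.2 ± 20.7 CPM in controls and 25.8 ± 5.95 in LOS, and its paternal allele 60.6 ± 20.5 and 39.7 ± 10.7 (SD, n = 5 and 6). The log2 fold changes were -0.97 ± 0.26 and -0.66 ± 0.24 (SE), with adjusted p of 0.97 and 0.93 (edgeR quasi-likelihood). These values are the XYLT1 counts described above, split by the allelic share, and are no second measurement of them.

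Related members that lie close together in the genome were set against each other over the 11 libraries, in 3 pairs. GPC3 and GPC4, 109197 bases apart on the X chromosome, tended in opposite directions. Pearson's r of log2(CPM + 0.5) was -0.65 (permutation p = 0.036, adjusted 0.11 over the 3 pairs) and Spearman's rho -0.75 (permutation p = 0.0096, adjusted 0.029). Without the 2 libraries farthest from the median of GPC3, r was -0.65 (permutation p = 0.057, adjusted 0.17) and rho -0.62 (permutation p = 0.085, adjusted 0.25). With the group means removed, r was -0.69 (permutation p = 0.019, adjusted 0.056). With group and sex means removed, an alternative added after the data were seen, r was -0.60 (permutation p = 0.049, adjusted 0.15) and rho -0.61 (permutation p = 0.052, adjusted 0.084). The rank correlation thus passed the adjustment over all 11 libraries and in none of these alternatives.

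DCN and LUM, 33547 bases apart, had an r of 0.34 (permutation p = 0.30, adjusted 0.30) and a rho of 0.58 (permutation p = 0.066, adjusted 0.098). OGN and ASPN, 32426 bases apart, had an r of 0.40 (permutation p = 0.22, adjusted 0.30) and a rho of 0.37 (permutation p = 0.26, adjusted 0.26). Neither pair passed.

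**Figure D5:**
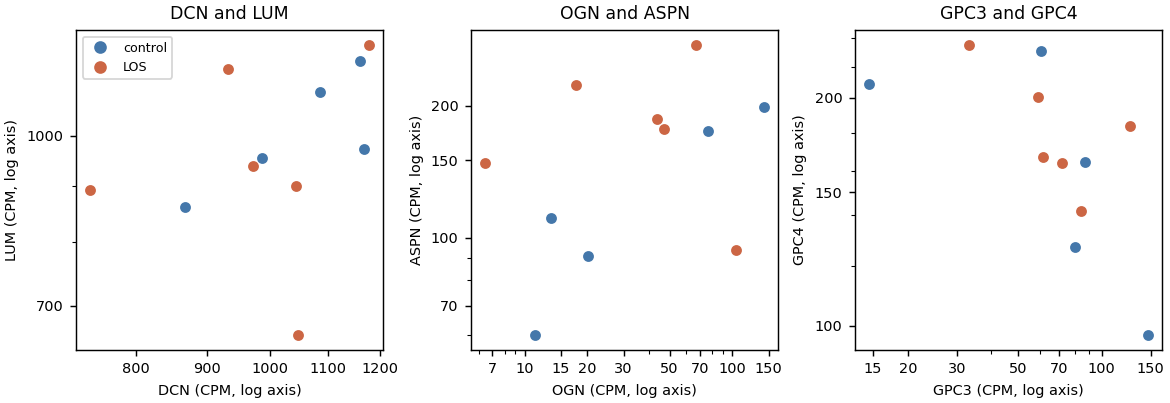
CPM of the second gene of each pair (y axis, log scale) against the first (x axis, log scale) in each library, controls blue and LOS red. GPC4 tends to be high where GPC3 is low (r of -0.65), and the lowest GPC3 value, 14.5 CPM, belongs to control 5.

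Other genes of the pathway were counted in 8 lists of 130 genes, of which 123 were in the table and 98 were tested. In LOS 51 were higher and 47 lower than in controls, none passed the adjusted threshold, and 0 higher and 6 lower genes had an unadjusted p under 0.05, where 2.48% of all genes were higher and 1.95% lower at that p. Of 17 other cores tested, 7 were higher and 10 lower, and 3 of the latter had an unadjusted p under 0.05. These were SPOCK2, a testican (0.962 ± 0.368 CPM in controls and 0.499 ± 0.201 in LOS), ECM2 (306 ± 69.7 and 215 ± 78.1) and aggrecan (ACAN), the large proteoglycan of cartilage (SD, n = 5 and 6). ACAN lay between 0 and 19.0 CPM in controls, and between 0.106 and 2.18 in LOS.

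For the rest of heparan sulfate synthesis, 4 of 5 tested enzymes were higher and 1 lower, and for chondroitin and keratan sulfate 10 of 13 were higher and 3 lower, none with an unadjusted p under 0.05. Among the first, the 3-O-sulfotransferase HS3ST3B1 measured 0.444 ± 0.283 CPM in controls and 0.759 ± 0.749 in LOS. FAM20B, the kinase that phosphorylates the linker xylose, measured 35.9 ± 4.33 and 39.6 ± 2.28 CPM. HS3ST2, the 1 that was lower, measured 11.6 ± 2.43 and 9.80 ± 3.73 CPM. Another 3-O-sulfotransferase, HS3ST4, measured 307 ± 260 and 345 ± 80.5 CPM, and controls ran from 82.5 to 654. Among the second, CHPF2, a chondroitin polymerising factor, measured 44.1 ± 2.95 and 49.9 ± 6.60 CPM, and CHST2 measured 46.4 ± 15.5 and 35.7 ± 9.21 CPM (SD, n = 5 and 6). Of 12 tested genes for sugar and sulfate donors, 6 were higher and 6 lower. PAPSS1, which makes the sulfate donor of all the sulfotransferases above, measured 74.6 ± 5.82 and 61.9 ± 7.39 CPM (log2 -0.26 ± 0.09 SE, unadjusted p = 0.019, adjusted p = 0.93, edgeR quasi-likelihood). PAPSS2, which makes the same sulfate donor, measured 19.9 ± 6.39 and 21.0 ± 4.64 CPM (log2 0.08 ± 0.22 SE). UGDH, which makes the glucuronic acid donor, measured 46.8 ± 9.09 and 37.4 ± 7.31 CPM. UGP2, of the same list, was higher in LOS (163 ± 21.5 and 204 ± 57.1 CPM).

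Of 15 lysosomal genes that break the chains down, 7 were higher and 8 lower, none with an unadjusted p under 0.05. NAGLU, a heparan sulfate hydrolase, had the smallest p (45.1 ± 16.9 and 32.4 ± 9.21 CPM). Of 7 tested hyaluronan and link protein genes, 2 were higher and 5 lower, and the link protein HAPLN3 had an unadjusted p of 0.030 (60.4 ± 10.6 and 45.0 ± 10.3 CPM, adjusted p = 0.93, edgeR quasi-likelihood). Among 20 tested receptors and ligands that use heparan sulfate, 9 were higher and 11 lower, none with an unadjusted p under 0.05. The smallest p was that of HBEGF, a heparin-binding growth factor (0.574 ± 0.548 CPM in controls and 1.51 ± 1.08 in LOS). It was followed by FGF7, a keratinocyte growth factor (47.9 ± 16.5 and 29.6 ± 19.1 CPM), and PTN, pleiotrophin (120 ± 53.4 and 85.3 ± 85.9 CPM). Of 9 tested hedgehog pathway genes, a pathway that glypicans modulate, 6 were higher and 3 lower. GAS1, a hedgehog co-receptor, measured 19.8 ± 3.91 and 12.4 ± 4.86 CPM (unadjusted p = 0.022, adjusted p = 0.93, edgeR quasi-likelihood), and SMO, the signal transducer, 107 ± 12.7 and 135 ± 33.8 CPM.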

How the data were processed

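RNA-seq of 11 fibroblast cultures, 1 per fetus, was analysed. The tools in the submitters' processing notes, listed without their roles, were HISAT2 2.1.0, Salmon 0.11.1, StringTie 2.1.4, edgeR 3.36.0, Cufflinks 2.2.1, GATK, SAMtools 1.8, FastQC 0.11.7 and Picard 2.22.4, with build ARS-UCD1.2, and libraries were read as 150 bp paired ends with 33 M pairs planned, per the labels' protocols. The authors deposited unnormalised expected counts (estimated counts) for 21862 annotated genes and 5536 assembled loci, 71.2% of them whole. They also deposited whole read counts per parental allele for 9716 genes, and expected counts multiplied by the allelic share for 4347 genes, per the file headers (0 products differed by over 0.001). Strand use, and how reads of overlapping or similar genes were counted, are not given in the labels.

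Expected counts were rounded and tested in R 4.3.3 with edgeR 4.0.16 (TMM factors, filterByExpr, quasi-likelihood, sex and group as terms, Benjamini-Hochberg over all genes, threshold 0.05); CPM use TMM library sizes. Maternal and paternal reads were tested with a term for each library, on autosomes (29), at a mean of 20 or more allelic reads and 10 or more in at least 3 libraries of each group. Each allele's level used the TMM library sizes of the total counts. Every SE of an edgeR result was derived as the size of the log2 value divided by the square root of its F statistic. Correlations used log2(CPM + 0.5) and 100000 permutations, two-sided. The planned pair of GPC5 and GPC6 was not tested because GPC5 was filtered out. Replicate libraries were further apart than counting noise (chi-square per degree of freedom 14.6 to 66.0), so none was counted as a repeat. P-values measure the spread between these fetuses.

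The members and lists were chosen with earlier results of these data known. Values in every library are given for members with an unadjusted p under 0.05 between LOS and control, members called in any test, GPC3 and GPC4; VCAN was added after its values were seen. Up to 3 genes of each other list are named, by smallest p, and CSPG4, HS3ST4, CSGALNACT2 and PAPSS2 are named besides. A planned level per exon length was not computed, as no exon lengths of this build were used here, so levels are not compared between genes. Alternatives were DESeq2 1.42.0, limma 3.58.1 voom, other scalings and filters, no sex term, a replicate block and leaving out each library. The methods were also run on simulated data with changes larger than most of those reported here. That run does not bear on smaller changes, and its results are not given. Figures used matplotlib 3.10.9.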

Additional observations from a re-analysis of the deposited data

Results flagged for a closer look

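Of 112 groups of 4 to 6 libraries examined, 14 had a single library far from the others by Dixon's criterion. Chance meets it in about 1 in 20 groups of independent, normally distributed values. Whether the levels and shares here are so distributed was not tested. Among controls, the level stood apart at AGRN (16.6 CPM in control 2), EXT1 (101 in control 3), EXTL3 (66.8 in control 2), NDST3 (3.94 in control 3) and CHST11 (10.5 in control 5). Among LOS libraries, LOS 1 was far above the others at GPC6 (84.7 CPM), VCAN (1978) and SULF1 (253). LOS 4 was far above them at B3GALT6 (5.28 CPM), and LOS 6 far below at XYLT1 (33.8). The maternal share stood apart in controls only: at HSPG2 (57.7% in control 2), GPC1 (40.5% in control 5), XYLT1 (37.996% in control 3) and GPC6 (33.3% in control 2, on 3 reads).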

How the results depend on the processing

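Of 951 values recomputed under the alternatives, 914 kept their direction, side of the threshold or, for counts, a size within 1.5 times. For LOS against control, the fold changes among these values were those of chosen members, not of all 38. EXTL3, for example, was not among them and changed sign in 9 of 20 alternatives. DESeq2 called 5 genes for LOS against control, 22 for sex and 6 for the interaction, and none of them was a member. The replicate numbers did not pair the fetuses (correlations of deviations from -0.20 to 0.29, with 2 of 5 libraries closest to their own number). With a replicate block, 5 members (13.2%) had an unadjusted p under 0.05, beside 3.98% of all genes, 2 genes were called for sex, and the log2 fold changes were 0.29 for GPC3, 0.51 for OGN, 0.20 for SULF1 and -0.00073 for BGN, all of opposite sign. OGN was at 0.14 in limma voom. Leaving out each library in turn gave 3 to 7 members with an unadjusted p under 0.05 (7 without LOS 1, with 10.9% of all genes, and at most 4 otherwise, with 2.68% to 6.46%), 3 to 7 genes called for sex and 0 to 1 for the allelic share. Log2 fold changes then ran from -0.35 to 0.11 for GPC3, -0.44 to 0.35 for GPC6, -0.60 to 0.60 for OGN and -0.66 to 0.058 for SULF1. AGRN, HS6ST1 and XYLT1 kept their direction and an unadjusted p under 0.05 in all 20 alternatives. They were picked by that p, and the alternatives reuse the same libraries, so this is no independent evidence. Of 38 members, 19 changed sign in at least 1 alternative. None of these 19 had a log2 fold change beyond 0.24 in size in the analysis as reported. The causes were not tested. Other scalings moved the median log2 fold change of all genes by at most 0.0082. Members with under 20 allelic reads on average, and the 6 members filtered out, are limited by depth.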
